A study of Jatropha curcas with 31 samples.

Results

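The 150 contigs described here were brighter in both leaf groups of Jatropha curcas than at any of 6 stages of seed maturation, and their seed levels stayed within a narrow band from the green to the dry seed. They were chosen on measured values. Each of the 19838 contigs on the array was represented by its probe that was brightest on average in the 10 leaf arrays, 9528 contigs had 6 seed stage means within 1.5 log2 units of each other, and among these the contigs were ordered by a score, the smaller of the 2 leaf means minus the largest of the 6 seed stage means. The 150 highest scores were taken, so the difference between leaf and seed is a description of the choice and carries no test.

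Levels came from an Agilent 8x60K array with 60-base probes, hybridized with a single cyanine-3 label, and are log2 intensities of the table the authors deposited unless scanner values are named. The seeds were collected from 1 selected plant in Ethiopia and sorted by the colour of epicarp and endocarp into stages I (green fruit, white seed coat), II (green, brown), III (green, black), IV (yellow), V (brown) and VI (dry), with 3, 4, 3, 3, 4 and 4 arrays. The leaf arrays came from toxic plants (5 arrays) and non-toxic plants (5 arrays), for which neither age nor treatment is given. The origin of the leaf plants is also not given, so tissue and plant cannot be told apart, and the codes of 4 leaf arrays hold numbers also found in the codes of others, without the labels stating whether these are the same plants. The p-values below then measure the spread between these arrays, part of which may be technical.

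Leaves make their carbohydrate in chloroplasts, where photosystems embedded in the thylakoid membrane capture light, the Calvin cycle fixes carbon dioxide, and photorespiration recovers the carbon lost when RuBisCO takes up oxygen. Chloroplasts also carry their own ribosomes and make chlorophyll from the porphyrin pathway and carotenoids from the isoprenoid pathway. Young seeds of many oil plants are green as well and switch much of this programme off as they mature, so a leaf transcript can be either graded over seed maturation or low throughout. The probes were designed from contigs of pooled seed RNA. A leaf transcript that was not sequenced from seed therefore has no probe.

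The labels of tissue were checked against markers. Of 5 contigs annotated as photosystem or RuBisCO 1 is among the 150 and was chosen for this contrast. Of the other 4, 2 had every leaf array above every seed array and none had the reverse, and of 8 contigs annotated as seed storage protein, oleosin or late embryogenesis abundant protein, 4 had every seed array above every leaf array and none had the reverse. On the scanner side, 47.9% to 69.6% of spots per array were well above background. The 31 arrays lay on 4 slides. Slides 1, 2 and 3 held 1 array of every group, and slide 4 held 3 seed and 4 leaf arrays. In scanner values the leaf arrays on slide 4 correlated with those on the other slides at 0.89 to 0.93, against 0.95 to 0.97 for the other pairs of leaf arrays, whereas in the deposited table all pairs of leaf arrays lay at 0.95 to 0.98. Median levels of the deposited columns were 5.62 to 5.68 for seed and 5.44 to 5.47 for leaf, so leaf and seed columns did not share a single distribution, and how the authors scaled them against each other is not given in the sources used here. The median contig was 0.16 log2 units higher in leaf than in seed in the deposited table, and in scanner values it stood at 0.06 after quantile normalization over all arrays, at 0.02 with normexp background correction and at -0.09, thus lower in leaf, with 75th percentile scaling. All 150 contigs were higher in leaf in each of these 4 tables.

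The score ran from 6.87 to 2.09. It was at least 5 in 5 contigs, at least 4 in 19 and at least 3 in 46. Just inside the limit of 150 stood contig08897 (2.1), contig09505 (2.09) and contig02861 (2.09), and just outside it stood contig19425 (2.06), contig09779 (2.04) and contig00878 (2.04). The second requirement also cut through a continuum, since 16 of the 150 contigs had seed means ranging over more than 1.4, and another 27 contigs past the same score were left out with a range between 1.5 and 1.6. In all, 304 contigs passed the score but had seed means ranging over more than 1.5.

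**Figure D1:**
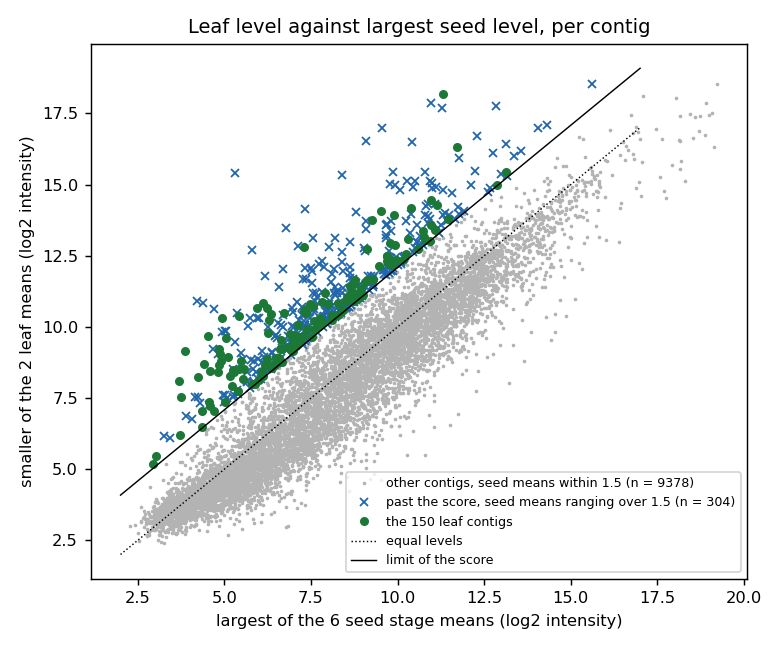
Smaller of the 2 leaf group means against the largest of the 6 seed stage means, both in log2 intensity, with 1 point per contig. The 150 contigs (filled circles) lie above the line of the limiting score of 2.09 and are mixed with the 304 contigs (crosses) that passed the score but whose seed means ranged over more than 1.5.

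The contigs were lower in seed than in leaf by choice, but most were not below detection in seed. By the scanner's own call, 84 of the 150 probes were well above background on all 21 seed arrays, 60 on some of them and 6 on none. Over all contigs 60.8% of the kept probes were well above background on all seed arrays and 5.28% on none. On the leaf side 146 of the 150 were well above background on all 10 arrays. The contigs are therefore called leaf contigs lower in seed in what follows. A lower signal cannot distinguish fewer cells with the transcript from less transcript per cell.

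Across the seed stages the contigs hardly moved as a set, which the rule required. Their median stage mean was 6.74 at stage I, 6.65 at stage II, 6.45 at stage III, 6.82 at stage IV, 6.74 at stage V and 6.78 at stage VI, against 10.33 in toxic and 10.23 in non-toxic leaf. The stage with the highest mean varied among them. It was dry seed VI for 35 contigs, stage I for 30, stage II for 26, stage III for 23, stage IV for 21 and stage V for 15, and the lowest mean was at stage III in 46 contigs.

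**Figure D2:**
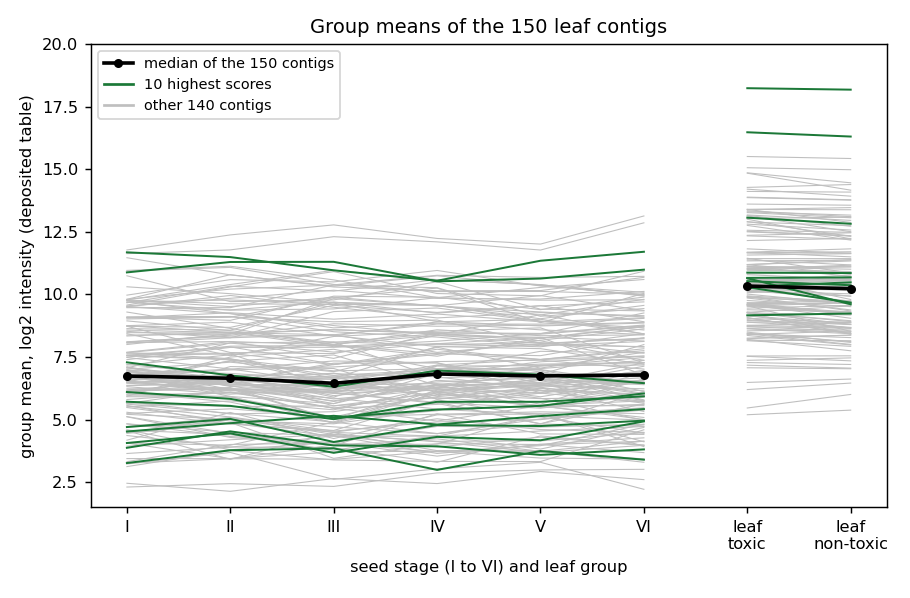
Group means (log2 intensity, deposited table) of the 150 contigs at seed stages I to VI and in both leaf groups, with 1 line per contig, the 10 highest scores in green and the median in black. The median stays between 6.45 and 6.82 over the seed stages and stands at 10.33 and 10.23 in leaf.

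Leaf minus seed, taken as the mean of the leaf groups minus the mean of the stages, had a median of 3.21 log2 units over the 150 contigs (9.25-fold) and ranged from 2.39 to 7.27, with 35 contigs at 4 or more. In 148 of the 150 the lowest leaf array lay above the highest seed array, which was the case for 11.9% of all contigs and 12.3% of those within the seed range. The exceptions were contig07893 and contig02975. The difference was positive within each of the 4 slides for every contig, with medians of 3.32, 3.27, 3.17 and 3.26 on slides 1 to 4. In scanner values the slide medians were 3.52, 3.57, 3.39 and 2.87, and slide 4 gave the smallest. Leaf arrays of 1 group varied in the deposited table with a median SD of 0.33 for these contigs and 0.30 for all contigs. Arrays of 1 seed stage varied there with 0.25 in both.

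The highest score belonged to contig00556, annotated as the 10 kDa protein of photosystem II (PSBR), a subunit at the oxygen-evolving complex; it matched the RefSeq gene PSBR. Its leaf levels were 18.17, 18.36, 18.23, 18.21 and 18.21 on the toxic arrays and 18.16, 18.11, 18.11, 18.24 and 18.27 on the non-toxic arrays. Over the 21 seed arrays it lay at a lowest of 10.46, a median of 10.92 and a highest of 11.57. No seed array came within 6.54 log2 units of the lowest leaf array, and the leaf mean stood 154-fold above the seed mean. Quantile normalization sets levels by rank, so the closeness of the leaf arrays for so bright a probe may be partly set by it. In quantile normalized scanner values all 4 leaf arrays of slide 4 read the same 18.35. In seed this photosystem II contig was still well above background on all 21 arrays, so it was not absent. Its stage means went from 10.52 (stage IV) to 11.30 (stage III), a narrow range that the rule required.

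The contigs of RuBisCO, the carbon-fixing enzyme, differed among themselves, and none was among the 150. Contig19317 stood at 18.06 in toxic and 17.88 in non-toxic leaf, but its seed means went from 10.95 at stage I to 4.21 at stage V, a range of 6.75, which left it out. The contig of the RuBisCO large subunit, contig00674, reached 15.51 and 15.38 in leaf and ranged over 1.99 in seed. Contig04560 had the opposite direction, with 6.05 and 5.98 in leaf below its 6 seed means of 6.92 to 8.22, and contig12729 differed by 0.61 between leaf and seed. These values are given as background to the choice and were not tested.

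The next ranks were mostly contigs with no annotation in the sources used here. The second, contig09009, lay at 12.41 to 13.29 in leaf (median 12.94) and at 5.88 to 7.49 in seed (median 6.74), with no overlap, and was 72.5-fold higher in leaf. The third, contig18354, lay at 9.99 to 10.91 in leaf (median 10.36) and at 2.49 to 5.47 in seed (median 4.38), and was well above background on 5 of the 21 seed arrays. For both, the lowest leaf array exceeded the highest seed array by more than 4 log2 units.

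Contig11029, the fourth, was at 8.64 to 9.79 in leaf (median 9.19) and was not well above background on any seed array, where it was listed at 2.01 to 4.41. For such probes only an approximate bound can be given, with each seed array at the higher of the probe's own signal and the dimmest signal called well above background. That dimmest signal is not a detection limit, so the bound is no guaranteed minimum. The bound also depended on the values it was taken from. For contig11029 the calculation gave 8.90-fold in scanner values with normexp correction, where an offset of 50 is added to every signal. It gave 48.1-fold in the deposited table and 98.5-fold in quantile normalized scanner values. In the deposited table the step raised the seed mean of contig11029 only from 3.53 to 3.62 and left that of contig21721 at 3.91. The deposited values of these contigs are therefore close to the plain fold differences of dim signals. The normexp and deposited bounds were 5.80-fold and 33.6-fold for contig03494, 5.15-fold and 21-fold for contig21721, and 3.55-fold and 15-fold for contig19255. They were 2.19-fold and 6.88-fold for contig07893 and 1.54-fold and 4.79-fold for contig16905. The last pair were also weak in leaf, well above background on 8 and 6 of the 10 leaf arrays.

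Contig08982, the fifth, lay at 8.55 to 10.80 in leaf and at 3.23 to 4.86 in seed, and was a short contig of 225 bases with a single probe. Contig16906 lay at 9.82 to 10.96 and at 4.25 to 5.86. Contig06323, the eighth, lay at 9.87 to 11.62 in leaf and at 4.42 to 6.42 in seed, and the enrichment table of the study lists it under chromatin binding. These 3 were separated from seed on every array.

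Contig05836, the ninth, was well above background on all 21 seed arrays. It lay at 16.12 to 16.69 in leaf (median 16.36) and at 10.04 to 12.04 in seed (median 11.44), and was 34.3-fold higher in leaf. Contig02295, the tenth, had the widest leaf spread of the 10, from 8.12 to 11.42, with seed arrays at 3.68 to 5.62, and matched a RefSeq gene without a name. Its other probes are described with the probe comparison.

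An enzyme assigned as 4-nitrophenylphosphatase, a group that holds phosphatases of small phosphorylated metabolites such as phosphoglycolate, was represented by the neighbouring contigs contig12690 and contig12691. Contig12690 lay at 10.62 to 11.14 in leaf (median 10.87) and at 4.96 to 6.39 in seed (median 5.76), a 36.6-fold difference. Contig12691 lay at 13.56 to 14.01 (median 13.83) and at 7.54 to 9.35 (median 8.48), a 40.0-fold difference. Both were lowest at stage III, with means of 5.08 and 7.91.

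Contig00304 was annotated as alanine aminotransferase and matched the RefSeq gene AOAT2, named after an Arabidopsis peroxisomal enzyme that transfers the amino group from glutamate or alanine to glyoxylate during photorespiration. It lay at 13.72 to 14.37 in leaf (median 14.03) and at 8.73 to 10.02 in seed (median 9.49), a 23.4-fold difference. Contig17884 carried several oxidoreductase assignments, among them the glyoxylate reductase that clears glyoxylate. It lay at 9.16 to 10.32 in leaf (median 9.50) and at 5.05 to 6.93 in seed (median 6.27), an 11-fold difference. Neither contig was in the list of photorespiration enzymes, which held other enzyme numbers.

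The list of photosystem and thylakoid contigs, taken from annotation text and gene ontology names, held 58 contigs, of which 3 (5.17%) were among the 150. Of all contigs 0.756% were among the 150, the share beside which the counts of this and the following lists stand. Beside PSBR these were contig00532 and contig14330. Contig00532, a 50S ribosomal protein of the chloroplast that matched EMB2394, lay at 12.49 to 13.80 in leaf and at 9.21 to 10.41 in seed, with stage means going from 10.31 at stage I to 9.36 at stage VI. Contig14330, known only from a thylakoid membrane term, lay at 12.64 to 13.81 in leaf and at 9.16 to 10.79 in seed. In the whole list 29 of 58 contigs (50%) had every leaf array above every seed array, beside 11.9% of all contigs. None had the reverse, which 5.96% of all contigs had. The median difference was 1.79 against 0.16 over all contigs. A further 9 passed the score and were left out because their seed means ranged over more than 1.5.

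Of 33 contigs with Calvin cycle and photosynthesis enzymes, 14 (42.4%) had every leaf array above every seed array, beside 11.9% of all contigs. The median difference was 1.47, and 5 were left out by the seed range. Only contig21920, a ribulose-phosphate 3-epimerase, which interconverts pentose phosphates in the Calvin cycle, was among the 150. It lay at 6.76 to 7.42 in leaf and 2.27 to 5.04 in seed, and was well above background on 1 of 21 seed arrays. The list of 39 photorespiration contigs had a median difference of 0.57 and 7 contigs (17.9%) with all leaf arrays above all seed arrays. It held no contig among the 150, beside 0.756% of all contigs.

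The porphyrin and chlorophyll list held 55 contigs, 24 of them (43.6%) with every leaf array above every seed array and 3 with the reverse. All contigs had shares of 11.9% and 5.96%. The median difference of this list was 1.25. Those among the 150 catalyse steps of the path common to chlorophyll and haem. Contig03371, uroporphyrinogen decarboxylase, lay at 12.02 to 12.93 in leaf and 8.77 to 10.23 in seed, an 8.05-fold difference. Contig08897, hydroxymethylbilane synthase, lay at 10.63 to 11.96 in leaf and 8.16 to 9.09 in seed, a 5.23-fold difference. Both were well above background on all seed arrays.

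In the carotenoid list 5 of 15 contigs (33.3%) had every leaf array above every seed array, beside 11.9% of all contigs, and the median difference was 1.03. Its contig among the 150 was contig09491, a 9-cis-epoxycarotenoid dioxygenase, the enzyme that cleaves carotenoids towards abscisic acid. It lay at 12.76 to 13.86 in leaf. It was well above background on every seed array, and the stage means were 9.47, 9.47, 10.38, 10.76, 10.68 and 10.72 from stage I to VI, so that stages I and II were the lower ones within the permitted range.

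**Figure D3:**
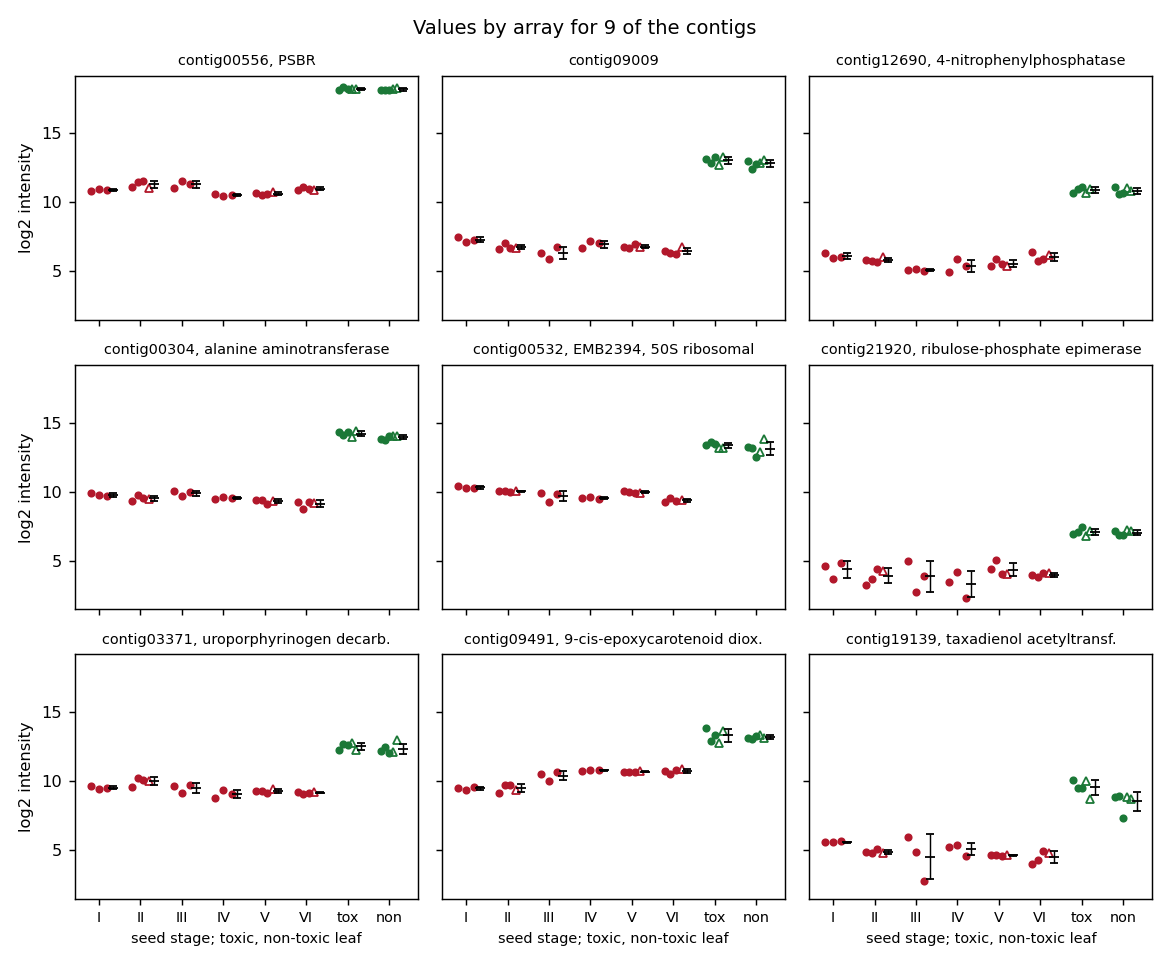
Log2 intensity on each array (deposited table) for 9 of the contigs, by seed stage and leaf group (red, seed; green, leaf; open triangles, slide 4; black, mean ± SD). Leaf and seed arrays do not overlap in any of the 9 panels, and the slide 4 arrays lie on the same side of the gap as the others of their tissue.

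Among the lists of secondary metabolism, flavonoid biosynthesis had 1 of 106 contigs (0.943%) among the 150 and phenylpropanoid biosynthesis 3 of 89 (3.4%), beside 0.756% of all contigs. In the flavonoid list 12 of 106 contigs had every leaf array above every seed array and 7 had the reverse, close to the 11.9% of all contigs, and the contig among the 150 was contig03325, assigned to flavonol synthase and leucocyanidin oxygenase (8.76 to 9.93 in leaf, 5.24 to 7.57 in seed). In the phenylpropanoid list the counts were 10 and 5 of 89. Its contigs among the 150 were the peroxidase contig10709 (10.81 to 11.60 in leaf, 6.84 to 8.80 in seed), the beta-glucosidase contig14034 (6.56 to 7.83 and 3.52 to 5.27) and contig02975, a sinapoyltransferase that attaches sinapate to malate. In contig02975 the tissues overlapped, since its highest seed array at 7.04 exceeded its lowest leaf array at 6.74, while its median seed array was at 4.61. The other probes of contig02975 differed by 0.28 and 0.84 log2 units between leaf and seed, and those of contig10709 by -1.64 to 1.95.

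The diterpenoid list is of interest in this plant because phorbol esters, the toxins of its seed, are diterpenes. Of its 20 contigs 1 (5%) had every leaf array above every seed array and 3 had the reverse, beside 11.9% and 5.96% of all contigs. The median difference of the list was -0.23. The single leaf contig was contig19139, assigned to taxadien-5-alpha-ol O-acetyltransferase, an acyltransferase of the taxane pathway in yew whose role in Jatropha is not given. It lay at 8.70 to 10.09 in toxic leaf, at 7.30 to 8.89 in non-toxic leaf and at 2.72 to 5.92 in seed. The lists of monoterpenoid (12 contigs) and sesquiterpenoid and triterpenoid biosynthesis (10 contigs) held none of the 150, beside 0.756% of all contigs. Every leaf array lay above every seed array in 3 (25%) and 2 (20%) of their contigs, and none had the reverse. The median differences of these lists were 1.41 and 0.51. In the monoterpenoid list 2 contigs passed the score and were left out by the seed range.

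In starch and sucrose metabolism 32 of 218 contigs (14.7%) had every leaf array above every seed array and 11 had the reverse. These shares were near the 11.9% and 5.96% of all contigs. Its contigs among the 150 were, beside contig14034, the cell wall enzymes contig09564 and contig06600. Contig09564, a pectinesterase that removes methyl groups from pectin, lay at 7.73 to 10.18 in leaf and 3.09 to 5.94 in seed. Contig06600, a polygalacturonase that cleaves pectin, lay at 9.07 to 10.05 and 5.72 to 7.39.

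Glutathione metabolism had 15 of 67 contigs (22.4%) with every leaf array above every seed array and 3 with the reverse. Sulfur metabolism had 5 (12.8%) and 0 of 39, beside 11.9% and 5.96% of all contigs. Contig07751, a glutathione transferase, which couples glutathione to reactive compounds, lay at 7.98 to 9.16 in leaf and 4.65 to 5.83 in seed, and its 6 stage means differed little, from 5.09 to 5.43. Contig03051, an adenylyl-sulfate kinase that makes the sulfate donor of sulfotransferases, lay at 8.83 to 9.74 and 6.27 to 7.14. The lists of nitrogen metabolism (30 contigs, 8 and 3), alpha-linolenic acid metabolism (56 contigs, 11 and 6) and zeatin biosynthesis (12 contigs, 3 and 1) held none of the 150. Their shares with every leaf array above every seed array were 26.7%, 19.6% and 25%. In all, 17 of the 150 contigs (11.3%) were in at least 1 of the 16 lists, against 803 of all contigs (4.05%), and most of the 150 could be placed in no list.

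The remaining annotated contigs named here were in none of the lists. Contig00392, a GATA transcription factor, lay at 13.62 to 14.71 in leaf and 9.64 to 11.39 in seed, well above background on every array. Its kept probe differed by 3.76 log2 units, but its other probes by 0.74 to 1.93, each with overlap between leaf and seed. Contig01702 matched AGO5, an Argonaute protein that binds small RNAs, and lay at 8.50 to 9.64 in leaf and 4.30 to 6.23 in seed. Its other probes differed by only -0.17 to 0.63 log2 units between leaf and seed. Contig00313, whose text annotation names a zinc finger but whose Arabidopsis match GLIP4 and ontology terms name a lipase, lay at 9.34 to 11.35 and 4.23 to 6.60. The kept probes of all 3 were separated between leaf and seed on every array of the deposited table. In scanner values the leaf levels of contig00392 and contig01702 were lower on slide 4 than on slides 1 to 3.

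The inorganic diphosphatase contig08879, which hydrolyses pyrophosphate released in biosynthesis, lay at 11.07 to 11.99 in leaf and 6.88 to 8.93 in seed, with the highest stage mean in dry seed (8.62). Contig05773, an anthocyanidin glucosyltransferase that makes coloured anthocyanins from their aglycones, lay at 10.81 to 12.39 and 7.32 to 8.84. Its kept probe differed by 3.45 log2 units, but its other probes by only 0.67 and 0.40, each with overlap between leaf and seed. Contig07374, assigned to a glycosyltransferase, had toxic leaf arrays between 6.48 and 9.06 and seed arrays between 3.30 and 5.41. Contig01960 (10.26 to 11.27 in leaf, 5.15 to 6.67 in seed) and contig02191 (9.69 to 11.43 and 6.27 to 7.64) had a RefSeq protein match, to a gene without a name or to no entry of the current annotation. Annotation from any source covered 48 of the 150 contigs, 10 with text, 32 with an enzyme and 16 with a RefSeq protein, 10 of which led to a symbol. The tables were used in part, with text for the first contigs by number, so the uncovered contigs are not shown to be unknown genes.

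Beyond what the rule used, the contigs were compared by length and probe direction. Their median length was 712 bases (106 to 1798), against 563 over all contigs. Probes run in both directions along each contig, and a position that is a multiple of 500 marks the direction called sense. The kept probe was in sense direction in 78 of the 150 (52.0%) and in 61.3% of all contigs. The direction of a contig assembled from cDNA reads need not be that of its gene. A single probe represented 12% of the 150 contigs and 25.1% of all. These shares were not tested.

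The other probes of the same contigs were read on the same arrays. Since the probe brightest in leaf was kept, every other probe had a lower leaf mean by construction, which fixes part of their smaller differences, and the values below are a description. Of the 150 contigs 132 had another probe, 321 in all. Among the 90 probes in the same direction as the kept one, 49 (54.4%) had every leaf array above every seed array, and the median difference was 1.97 log2 units. Among the 231 in the opposite direction 31 (13.4%) did, with a median of 0.68, and over all probes of the array 6.73% did. No other probe in either direction had every leaf array below every seed array.

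PSBR illustrates the contrast between directions. Its kept probe differed by 7.27 between leaf and seed, whereas the probes in the opposite direction differed by 0.83 and 3.2 log2 units, the first of them not well above background on any leaf array. For the aminotransferase contig00304, both other probes in the same direction gave differences of 5.08 and 4.03 beside 4.55 for the kept one, and the 4 in the opposite direction gave 1.27 to 1.78. For contig00532 the same-direction probe gave 3.41, equal to the kept probe, for contig09491 it gave 3.32 beside 2.99, and for contig03371 it gave 2.86 beside 3.01.

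Other contigs differed between their probes. In 48 of the 132 contigs no other probe differed by as much as 1 log2 unit, and in 19 of the 71 with a same-direction probe none of these did. Contig02295, rank 10, is the clearest case. Its kept probe at the start of the contig differed by 5.40, while the 6 other probes differed by -0.91 to 0.07, and the 3 in the opposite direction were well above background on all 10 leaf and all 21 seed arrays. For contig06323 the other probe in the same direction differed by 0.68 beside 5.06. The AGO5 contig01702 and the glutathione transferase contig07751 were also such cases, with other probes at -0.17 to 0.63 and -0.02 to 0.24. So were contig05773, with other probes at 0.67 and 0.40, and contig02975, with 0.28 and 0.84. For such contigs the leaf level describes the probe and not the whole contig.

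**Figure D4:**
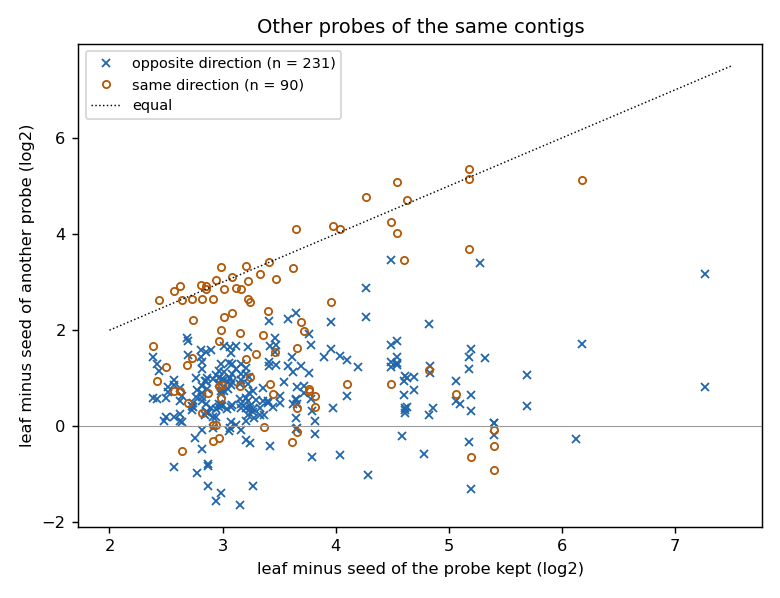
Leaf minus seed difference (log2) of each other probe against that of the kept probe of the same contig, for 90 probes in the same direction and 231 in the opposite direction. Many same-direction probes lie near the line of equal differences, others and most opposite-direction probes lie between -1 and 2.

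There were 5 pairs with adjacent contig numbers, 10 contigs in all, which cannot be told apart here from pieces or variants of the same transcript. The kept probes of contig12690 and contig12691 correlated at 0.99 over the 31 arrays, as did those of contig17435 and contig17436, with 0.98 for contig18016 and contig18017, 0.96 for contig02861 and contig02862 and 0.89 for contig16905 and contig16906. These correlations run over 2 tissues and describe mainly the leaf and seed difference for which the contigs were chosen. Counts over the 150 include both contigs of such pairs.

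The contrast that the rule did not use directly is that between toxic and non-toxic leaf, although it asked for a high level in both and so left out contigs absent from either. It was fitted with limma on scanner intensities of the 10 leaf arrays, quantile normalized, with Benjamini-Hochberg adjustment over all 57842 probes. This main fit had no slide term, so its SE and p-values also hold the differences between slides. None of the 150 contigs passed an adjusted p of 0.05, and neither did any probe of the array (0% called). The smallest adjusted p among the 150 was 1.00. At an unadjusted p under 0.05 there were 3 of the 150, beside 1.88% of all probes. With slide as a block the numbers at an unadjusted p under 0.05 were 10 of the 150 and 2529 of all probes (4.37%), again with no call after adjustment. The share was larger among the 150 in that fit, which was not tested.

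The differences were small. Their median size was 0.18 log2 units with a median SE of 0.35, and 148 of the 150 were under 1 in size, with extremes of 1.09 (contig02295) and -0.82 (contig02575). The direction was uneven, since 70.0% of the 150 contigs were higher in toxic leaf and 45 contigs lower, while over all contigs 50.9% were higher in toxic leaf. The 304 contigs that passed the score with a varying seed level were higher in toxic leaf in 214 cases (70.4%). The contigs are not independent and this share was not tested. The deposited table also gave 45 of the 150 as lower, and 49.9% of all contigs were higher in toxic leaf. The share depended on single arrays. Between 87 and 106 of the 150 were higher in toxic leaf when any leaf array was left out, with 87 without non-toxic replicate 3, 95 without non-toxic replicate 2 and 96 without toxic replicate 2, and 119 were on the 6 leaf arrays of slides 1 to 3.

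The smallest p belonged to contig04588, an unannotated contig. Its scanner values were 9.63, 9.95, 10.12, 9.76 and 9.57 on the toxic and 9.43, 9.05, 9.28, 9.55 and 9.52 on the non-toxic arrays. The lowest toxic array was just above the highest non-toxic one, and the difference was 0.44 with an SE of 0.17 (limma, unadjusted p = 0.0255, adjusted p = 1.00).

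Contig05815, also unannotated, read 14.84, 14.57, 14.88, 14.42 and 14.57 on the toxic and 14.03, 14.01, 13.13, 14.17 and 14.64 on the non-toxic arrays. A single non-toxic array reached into the toxic range, and the difference was 0.66 with an SE of 0.26 (limma, unadjusted p = 0.0303, adjusted p = 1.00). Contig00313, the contig with the GLIP4 match, read 11.40, 10.69, 10.59, 9.78 and 10.72 against 9.72, 10.08, 9.41, 10.53 and 9.39, with overlap and a difference of 0.81 with an SE of 0.32 (limma, unadjusted p = 0.0327, adjusted p = 1.00).

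The diterpenoid contig19139 had a difference of 1.07 with an SE of 0.48 (limma, unadjusted p = 0.0511, adjusted p = 1.00), and a single non-toxic array at 6.81 stood far below the other 4, which lay between 8.43 and 9.32. PSBR, at 0.03 with an SE of 0.24, and the aminotransferase contig00304, at 0.24 with an SE of 0.30, were below their SE. The scanner values of PSBR were equal in toxic and non-toxic leaf on slides 1, 2 and 4 (17.67, 17.74 and 18.35). On slide 3 they were 17.72 and 17.57, so the SE of PSBR reflects mainly differences between slides. On the 6 leaf arrays of slides 1 to 3 alone, 23 of the 150 had an unadjusted p under 0.05, beside 4042 of all probes (6.99%). This share was larger among the 150, which was not tested. After adjustment 30 of all probes (0.0519%) and none of the 150 were called (limma, smallest adjusted p = 0.463). A p that misses the threshold does not show that the leaf groups were alike.

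**Figure D5:**
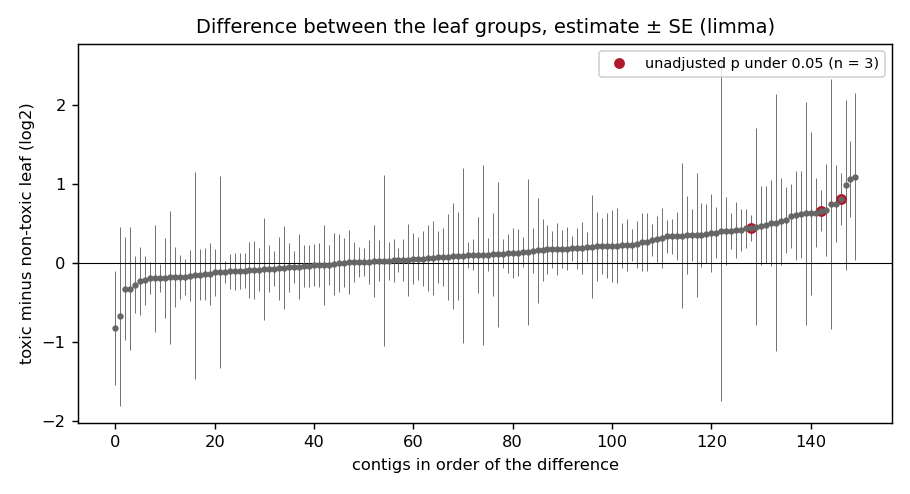
Toxic minus non-toxic leaf difference (log2, scanner values, limma) with its SE for the 150 contigs in order of the difference, with 3 contigs at an unadjusted p under 0.05 marked in red. Nearly all estimates lie between -0.5 and 1, most with an SE that spans 0, and 45 lie below 0.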

How the data were processed

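Total RNA was labelled with cyanine-3 and hybridized to 31 single-colour arrays. The deposited scanner files hold spot intensity from Agilent Feature Extraction 10.5.1.1, per the labels, with background subtracted after spatial detrending. The deposited log2 table holds the authors' values after averaging of replicate spots, log2 transformation, imputation and quantile normalization, per the methods of the study. Some probes differed more between slides in scanner values than in that table. On toxic leaf arrays contig16906 read 11.76, 12.19 and 12.09 on slides 1 to 3 and 7.87 and 8.19 on slide 4 in scanner values. The deposited levels were 10.57, 10.96, 10.79, 10.07 and 10.24. In the same scanner values contig01702 read 10.91, 10.89 and 11.02 on slides 1 to 3 and 6.14 and 7.40 on slide 4. Contig00392 read 15.75, 15.55 and 15.33 and then 12.20 and 12.86. The opposite direction occurred in contig19494, with 4.88, 4.88 and 5.29 and then 12.17 and 12.18. The methods name no step that brings slides together. The rule was applied to the deposited table. For the test, processed signals without control spots were averaged per probe after removal of non-uniform spots (848 gaps were filled with the mean of the 10 closest probes), log2 transformed and quantile normalized, and toxic and non-toxic leaf were compared with limma 3.58.1 in R 4.3.3, with Benjamini-Hochberg adjustment over 57842 probes and a threshold of 0.05. The number of arrays limits the precision.

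Groups came from the source labels. Replicate numbers were given in the order of deposit and follow the slides, read from the names of the scanner files. Toxic and non-toxic arrays of the same slide deviated together from their group means, with correlations of 0.32 to 0.69 over 7 pairs, so slide was tried as a block. Toxic and non-toxic arrays on different slides among 1 to 3 also correlated, at 0.20 to 0.51. Those of slide 4 with slides 1 to 3 lay at -0.61 to -0.35. Other scalings, background corrections, array sets, filters, the threshold of the methods (1e-08) and leaving out arrays were also tried. The deposited table with slide as a block, and the bounds for dim probes in other tables than quantile normalized scanner values, were added after seeing the data.

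The members, the gene lists and the tests were chosen with earlier results of these data known. Named contigs were the 10 highest scores, the 3 on each side of the limit, list members (at most 5 per list), the 20 annotated contigs with the highest scores and, with no call between leaf groups, the 3 smallest p. A few contigs outside that rule are named as exceptions, bounds, pairs or markers and were chosen after their values were seen. Enzyme, annotation and protein assignments came from the tables of the study, and symbols from the RefSeq annotation of assembly XTBG_Jcur_1.0, matched without versions (10 of 16 proteins).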

Additional observations from a re-analysis of the deposited data

Results flagged for a closer look

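Among the named contigs, 215 groups of 4 or 5 arrays were examined for an array that stood apart from the others of its group by Dixon's criterion, and 11 did. Chance alone marks about 1 in 20 groups, which is close to this share. All 11 arrays stood below their group, and 4 of them were on slide 4. Values are log2 intensities of the deposited table.

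Of the leaf groups, a non-toxic array of contig19139 (the taxadienol acetyltransferase assignment) read 7.30 against 8.72 to 8.89 on the others, and a toxic array of contig07374 (a glycosyltransferase) read 6.48 against 8.63 to 9.06. A toxic array of contig01702 (AGO5) read 8.52 against 9.40 to 9.64, and a toxic array of contig08897 (hydroxymethylbilane synthase) read 10.69 against 11.14 to 11.31. In none of the 4 did the low leaf array reach the seed range.

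Of the seed stages, a stage II array of contig00313 (GLIP4 match) read 4.23 against 5.47 to 5.65, a stage II array of contig09779 read 6.49 against 6.84 to 6.91, and a stage II array of contig03051 (adenylyl-sulfate kinase) read 6.31 against 6.50 to 6.53. A stage V array of contig03051 read 6.56 against 6.97 to 6.98, a stage V array of contig17884 (glyoxylate reductase assignment) read 5.28 against 5.54 to 5.59, and a stage V array of contig00392 (GATA factor) read 9.64 against 10.41 to 10.56. A dry seed array of contig02861 read 6.29 against 6.77 to 6.83.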

How the results depend on the processing

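Which contigs made up the 150 depended on the processing more than their leaf and seed difference did. When the rule was applied to quantile normalized scanner values it shared 93 contigs with the 150, with normexp background correction 71, and with 75th percentile scaling 100. With the deposited table it shared 67 at a seed range of 1 and 82 at a range of 2, 50 when all probes of a contig were averaged, 82 with sense probes only, 125 with the probe brightest in seed, 138 on slides 1 to 3, and 137 to 148 when any array was left out. Of the 150, 130, 131 and 131 kept every leaf array above every seed array in the 3 sets of scanner values, 149 on slides 1 to 3 and 148 to 149 when an array was left out. Their median difference was 3.36, 2.61 (normexp) and 3.34 in scanner values, 3.21 on slides 1 to 3 and within 0.0416 of the full value when an array was left out. The cause of the lower normexp value was not tested. The difference of all 43 named contigs kept its sign in the 3 sets of scanner values and on slides 1 to 3, but its size moved by more than the SD between leaf replicates for 15 (quantile), 33 (normexp), 9 (75th percentile) and 0 (slides 1 to 3) of them. No contig of the 150 was called between the leaf groups in any alternative, 0 when each leaf array was left out in turn and 0 with slide as a block, which also called 0 of all probes and changed no other call. Over all probes, 3 were called with all 31 arrays fitted together and 30 on the leaf arrays of slides 1 to 3, against 0 otherwise (0 to 0 when a leaf array was left out, at 850 to 1760 probes with an unadjusted p under 0.05). Dim seed signals limit the size of the difference for the 6 contigs not well above background on any seed array, and for the 60 that were well above it on only some seed arrays it rests in part on dim signals.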
